A study of Neogale vison with 6 samples.

Results

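Rab proteins are the largest branch of the Ras-like small GTPases and mark the membranes of the secretory, endocytic and autophagic routes. A Rab protein switches between a form bound to GDP and a form bound to GTP. Guanine nucleotide exchange factors (GEFs) load it with GTP at the right membrane, GTPase-activating proteins (GAPs) switch it off, and effectors that bind the GTP form tether, move or fuse vesicles. Rab proteins hold on to membranes through geranylgeranyl chains, which cells make from mevalonate, the metabolite from which they also make cholesterol. The members were the genes whose symbol in the deposited table is RAB followed by a number and at most a letter and a digit, without effectors or regulators. There were 51 of them among 24526 genes.

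The cells were Mv1Lu, an epithelial line from mink (Neogale vison) lung that is obtainable from ATCC. The 3 control libraries came from untreated cells, and the 3 CD libraries from cells depleted of cholesterol (CD) by lovastatin and mevalonate, each at 50 μM, over 16 h in medium whose serum was 10% lipoprotein-deficient serum (LPDS). Lovastatin is a statin, a drug that blocks the making of mevalonate in the cell. The study's methods describe the added mevalonate as enough for prenylation but not for normal cholesterol synthesis. The sources used here do not state the serum of the untreated cells for the RNA libraries in particular, and the parts of statin, mevalonate and serum cannot be told apart. The labels do not say that libraries of a group came from separate cultures, and p-values then measure only the spread between these libraries, which may be technical. The counts measure mRNA. They say nothing of the prenylation, location or activity of the Rab proteins.

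Gene counts per library ranged from 13473820 to 18633764. The CD libraries differed more from each other than the control libraries did, with a biological coefficient of variation of 0.214 against 0.0838 over all genes and a median coefficient of variation of the tested Rab genes of 13.4% against 8.32%. Reads not assigned to a gene made up 29.3% to 47.2% in the control libraries and 31.1% to 41.4% in the CD libraries, the highest of these being CD replicate 3, and their part in the results was not tested. The sterol response genes HMGCS1, IDI1 and INSIG1 were called higher in CD (log2 fold changes 1.67 to 3.43). Of 12 epithelial markers 10 were found, and 7 of them had counts in all libraries. Their summed level was 7932 to 8581 CPM (gene counts scaled to a common library total) in control and 1684 to 2082 in CD, and it was mostly that of KRT7, which fell by 2.50 on the log2 scale. The list did not move as one: KRT19 was also called lower (-1.03), CLDN4 was called higher from at most 0.867 CPM in control to at least 5.84 CPM in CD (3.55, having passed the filter through CD), and TJP1 (-0.31), ESRP1 (1.24) and OCLN (0.06) were not called. EPCAM, CDH1, CLDN7 and CRB3 had at most 6 counts in any library. The summed level of the 9 mesenchymal markers was 4266 to 4538 CPM in control and 3923 to 4970 CPM in CD, nearly all of it from VIM (means 4070 and 4152 CPM). COL3A1 (-1.72), PDGFRB (-1.08), COL1A1 (-0.93) and COL1A2 (-0.37) of that list were called lower. The endothelial list, of which TEK alone had counts in all libraries, stood at 206 to 221 and 75.9 to 124 CPM, with PECAM1, CDH5 and KDR at no more than 5 counts in any library and VWF at up to 3 counts in control and 27 in CD. The leukocyte list, of which CD68 alone did, stood at 5.13 to 5.66 and 16.9 to 22.4 CPM, with LYZ at 0 and PTPRC and ITGAM at no more than 1 count. Genes of all 4 lists moved with the treatment, and their part in the Rab results was not tested. In bulk RNA, a change in the number of cells of a type and a change in RNA per cell cannot be told apart.

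More Rab genes were called higher than lower after CD. A gene was tested if at least 3 libraries held about 10 counts or more, and was called at an FDR under 0.05 (edgeR quasi-likelihood test, Benjamini-Hochberg adjustment over all 12148 genes tested). Of 41 Rab genes that entered the test, CD cells had more of 23 and less of 2, and 16 were not called. Over all genes tested, 24.8% were called higher and 22.9% lower, so the share of higher members, 56.1%, stood above that background and the share of lower members, 4.88%, below it. Called changes of at least 2-fold upward were found for 7 Rab genes, or 17.1%, against 10.6% of all genes tested, and downward for 0, against 9.64%. Without the 3 members that passed the filter only through CD (RAB44, RAB39A and RAB25), the upward ones were 5 of 38 (13.2%), near the 10.6%. That background still includes all genes that passed only through CD, so these shares rest on unlike sets. The median log2 fold change was 0.55 over the tested Rab genes, with a range from -0.47 to 2.25, and 0.057 over all genes. All 3 CD libraries lay above all 3 control libraries for 26 Rab genes, where 29.5% of all genes did so, and below them for 5, where 28.6% did so. Leaving out 1 library gave between 16 and 25 higher members. The number of lower members was 0 whichever control library was left out, 1 without CD replicate 2 and 4 without CD replicate 3.

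The calls were unequally spread over control read level, which is not corrected for transcript length and also enters the fold change. Of the 8 Rab genes at 60 CPM and over in control (RAB1B, RAB34, RAB10, RAB35, RAB5C, RAB11B, RAB7A and RAB24), 0 were higher and 1 was lower (median log2 fold change -0.08), where 17.1% of all genes at that level were higher and 37.4% lower. At 30 to 60 CPM, 6 of 9 Rab genes were higher and 1 was lower (all genes 23.3% and 24.9%). At 10 to 30 CPM all 9 were higher (all genes 29.0%), and under 10 CPM 8 of 15 were (29.0%). Without the 3 members that passed the filter only through CD it was 6 of 12, whereas the share over all genes keeps such genes.

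Together the 51 genes made up 0.170% to 0.175% of the gene counts in the control libraries and 0.182% to 0.212% in the CD libraries. Their summed level was 1730.4, 1708 and 1743 CPM in control replicates 1 to 3 and 2021, 2022 and 1887 CPM in CD replicates 1 to 3. The groups did not overlap, and the mean CD sum was 1.14 times that of control. CPM were computed on gene counts alone, with library sizes scaled by TMM. They are not corrected for transcript length, so levels are compared between libraries and not between genes.

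Not every member could be tested. The other 10 (RAB15, RAB17, RAB19, RAB26, RAB27B, RAB39B, RAB3B, RAB3C, RAB42 and RAB9B) had at most 14 counts over the 6 libraries, and RAB19 and RAB42 had none. Of the tested members, RAB44, RAB39A and RAB25 reached the minimum in all libraries of CD cells but not of control cells, so that they could enter the test only through CD. Among the 38 tested members that reached it in every control library, 21 (55.3%) were higher and 2 were lower. NCBI's RefSeq annotation of mink, on the assembly ASM_NN_V1, lists 8 further Rab symbols (RAB13, RAB1A, RAB22A, RAB28, RAB33A, RAB33B, RAB38 and RAB4B) that no row of the count table carries. The table holds 6498 genes without a symbol, and these 8 were not analysed here.

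**Figure D1:**
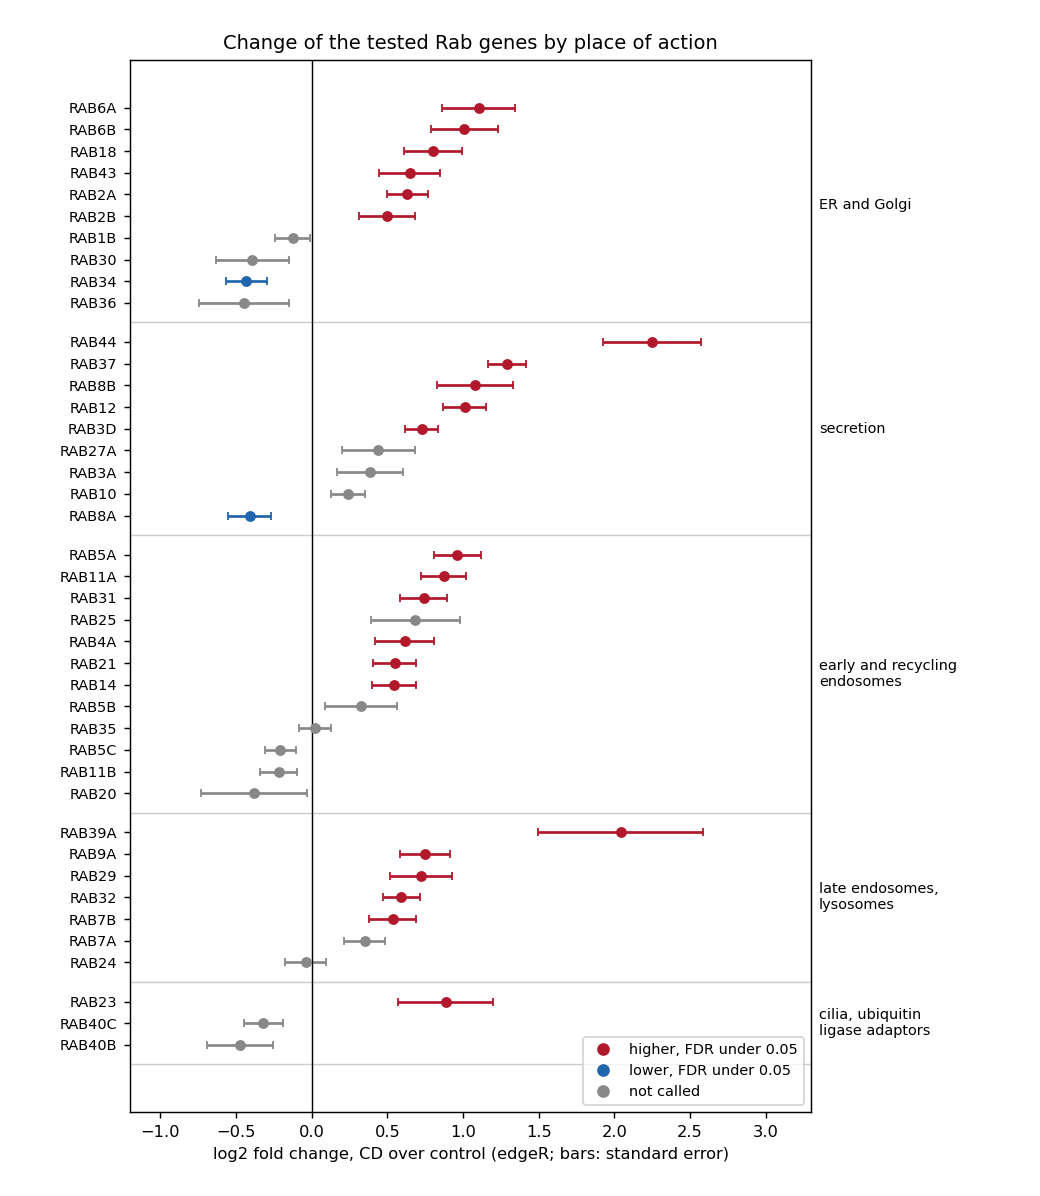
The log2 fold change of CD over control (x axis) is plotted for each of the 41 tested Rab genes, grouped by where the protein acts, with the standard error of the fit as bars (edgeR, 3 libraries per group). Points to the right of 0 are higher in CD, the 23 called ones in red and the 2 called lower, RAB34 and RAB8A, in blue; RAB44 and RAB39A lie farthest right.

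Among the Rabs of the endoplasmic reticulum (ER) and Golgi, 6 of 10 tested genes were higher in CD (RAB6A, RAB6B, RAB18, RAB43, RAB2A and RAB2B), 1 was lower (RAB34), where 24.8% of all genes tested were higher and 22.9% lower. The median log2 fold change was 0.57. RAB6A acts in transport between endosomes, Golgi and ER. It stood at 16.2, 17.6 and 14.4 CPM in control replicates 1 to 3 and at 47.7, 32.8 and 23.1 CPM in CD replicates 1 to 3. All CD values lay above the control values, but they spanned a 2.07-fold range from CD replicate 3 to CD replicate 1. The fitted log2 fold change of RAB6A was 1.10 ± 0.24 (SE, FDR 0.00391). Its paralog RAB6B, best known from neurons, stood at 2.29, 3.40 and 2.92 CPM in control and 5.78, 5.03 and 6.56 CPM in CD. RAB6B rose by 1.01 ± 0.22 on the log2 scale (FDR 0.00411), with the CD libraries closer together than for RAB6A.

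RAB18, a Rab of the ER and of lipid droplets, stood at 31.5, 40.6 and 26.5 CPM in control and at 62.6, 45.1 and 63.8 CPM in CD (log2 fold change 0.80 ± 0.19, FDR 0.00623). RAB2A, which acts in traffic between ER and Golgi, rose by 0.63 ± 0.13 (FDR 0.00334). Its paralog RAB2B rose by 0.50 ± 0.18, at the edge of the threshold (FDR 0.0467), and lost the call whichever library was left out, except CD replicate 3 (FDR 0.0935 to 0.151). RAB43, a Golgi Rab, stood at 34.3, 29.5 and 34.0 CPM in control and at 57.5, 61.3 and 34.6 CPM in CD, so that CD replicate 3 lay just above the highest control library. RAB43 had a log2 fold change of 0.65 ± 0.20 (FDR 0.0235) and lost the call when a control library or CD replicate 2 was left out (FDR 0.0562 to 0.112).

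RAB34, which helps to position lysosomes and to build the primary cilium, was the only lower member of this group. Control replicates 1 to 3 held 206, 197 and 208 CPM of it and CD replicates 1 to 3 held 126, 152 and 176 CPM, without overlap. Its log2 fold change was -0.43 ± 0.13 (FDR 0.0225). It was not called when any control library or CD replicate 2 was left out (FDR 0.0529 to 0.0773). The related RAB36 (-0.45, FDR 0.245) and the Golgi Rab RAB30 (-0.39, FDR 0.205) were not called. Neither was RAB1B, a Rab of transport from ER to Golgi, at 222, 192 and 217 CPM in control and 188, 211 and 179 CPM in CD (-0.13, FDR 0.392). RefSeq places RAB30 over the gene DDIAS, which was called lower, at 23.1, 22.8 and 19.2 CPM in control and 7.68, 5.15 and 5.62 CPM in CD (-1.81 ± 0.20, FDR 5.71e-05). The library kit does not mark strand, so reads of overlapping genes cannot be told apart, and RAB6A, RAB18, RAB7A, RAB20 and RAB40C overlap uncharacterized loci there.

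For the Rabs of secretion and of transport to the plasma membrane, 5 of 9 tested genes were higher (RAB44, RAB37, RAB8B, RAB12 and RAB3D) and RAB8A was lower (all genes 24.8% and 22.9%). RAB44 among them passed the filter only through CD. The median log2 fold change of the group was 0.73. RAB44, an unusually large Rab of immune cell granules, had the highest fold change of the family from few reads. It was covered by 4, 3 and 5 reads in the control libraries and by 21, 20 and 18 in the CD libraries, which is 0.287, 0.217 and 0.275 CPM against 1.29, 1.23 and 1.297 CPM. The 3 CD libraries were close together, and the fit gave a log2 fold change of 2.25 ± 0.32 (FDR 0.000325).

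RAB37, which acts on secretory granules, changed evenly. Its level was 17.2, 16.6 and 18.1 CPM in control and 40.9, 43.8 and 42.5 CPM in CD, a log2 fold change of 1.29 ± 0.13 (FDR 2.99e-05). RAB12 was counted in this group but is known from the degradation of transferrin receptor. It rose from 16.2, 17.3 and 15.1 CPM to 32.9, 29.4 and 35.4 CPM (1.01 ± 0.14, FDR 0.000297). RAB3D, a Rab of regulated secretion, rose from 52.1, 49.4 and 50.9 CPM to 79.4, 89.2 and 83.5 CPM (0.73 ± 0.11, FDR 0.000473). In each of these 3 genes the gap between the groups was wider than the spread within either. The fellow secretory Rabs RAB27A (0.44, FDR 0.160), RAB3A (0.39, FDR 0.167) and RAB10 (0.24, FDR 0.108) were not called.

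RAB8A and RAB8B, close paralogs that guide vesicles from the Golgi to the plasma membrane and the cilium, were called in opposite directions. RAB8B stood at 4.87, 4.77 and 4.52 CPM in control and 14.0, 8.40 and 7.56 CPM in CD (1.08 ± 0.25, FDR 0.00548). RAB8A stood at 51.5, 47.8 and 49.9 CPM in control and 39.6, 41.8 and 30.8 CPM in CD (-0.41 ± 0.14, FDR 0.0364). Neither gene's groups overlapped. The call of RAB8A was lost whichever control library was left out (FDR 0.0761 to 0.123), whereas that of RAB8B held in every alternative tried.

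**Figure D2:**
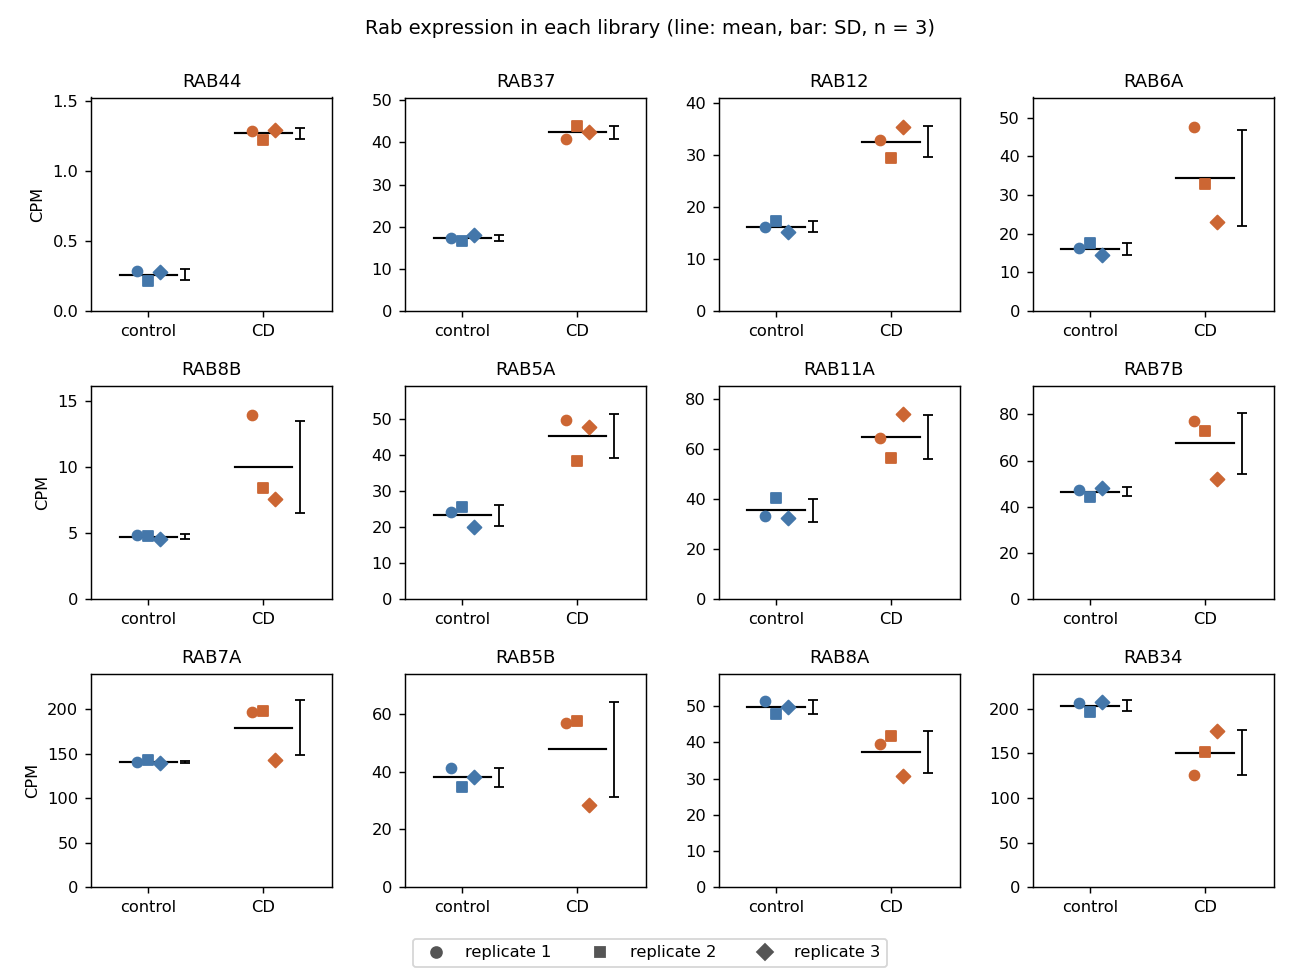
CPM (y axis, from 0) of 12 Rab genes in the 3 control and 3 CD libraries (x axis), 1 panel per gene with its own scale; the symbol shape gives the replicate number, lines are means and bars SDs. RAB44, RAB37 and RAB12 separate the groups with little spread, RAB6A and RAB8B are highest in CD replicate 1, and CD replicate 3 of RAB7A (143 CPM) and RAB5B (28.6 CPM) lies just above and below the control values, respectively.

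In the early and recycling endosomes, 6 of 12 tested genes were higher (RAB5A, RAB11A, RAB31, RAB4A, RAB21 and RAB14) and 0 lower, against 24.8% and 22.9% of all genes. Their median log2 fold change was 0.55. RAB5A, which drives fusion of early endosomes, stood at 24.2, 25.6 and 20.1 CPM in control and 49.7, 38.4 and 47.8 CPM in CD. It rose by 0.96 ± 0.16 on the log2 scale (FDR 0.000667). Its paralogs were not called. RAB5B was at 41.3, 34.8 and 38.1 CPM in control and 56.7, 57.6 and 28.6 CPM in CD, with CD replicates 1 and 2 above and CD replicate 3 below all control libraries (0.33 ± 0.24, FDR 0.278). RAB5C was at 161, 154 and 165 CPM in control and 135, 145 and 136 CPM in CD, lower in all 3 CD libraries but not called (-0.21 ± 0.10, FDR 0.122).

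RAB11A, the Rab of slow recycling to the cell surface, stood at 33.2, 40.6 and 32.6 CPM in control and 64.2, 56.4 and 74.1 CPM in CD (0.87 ± 0.15, FDR 0.000899). The paralog RAB11B was at 120.4, 107 and 118 CPM in control and 91.8, 113 and 92.4 CPM in CD, with overlap between the groups (-0.22 ± 0.12, FDR 0.170). RAB25, the epithelial relative of RAB11, had 0.502, 0.795 and 0.771 CPM in control and 1.11, 1.10 and 1.15 CPM in CD and was not called (0.68 ± 0.29, FDR 0.0804).

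RAB31, which carries cargo from the trans-Golgi to endosomes, rose by 0.74 ± 0.16 (FDR 0.00335), and RAB4A, the Rab of fast recycling, by 0.61 ± 0.19 (FDR 0.0244). RAB21, a Rab of integrin endocytosis, rose by 0.55 ± 0.14 (FDR 0.0106), and RAB14, which links Golgi and endosomes, also by 0.55 ± 0.14 (FDR 0.0110). RAB21 was even across the CD libraries, at 18.9, 18.8 and 19.3 CPM against 12.4, 13.6 and 13 CPM in control. Of these, RAB4A was not called without control replicates 1 or 3 or CD replicate 2 (FDR 0.0740 to 0.114), and RAB21 and RAB14 not without control replicate 1 (FDR 0.0656 and 0.0601). RAB35, which acts in recycling from endosomes, was at 153, 147 and 164 CPM in control and 156, 164 and 151 CPM in CD (0.02 ± 0.10, FDR 0.883). RAB20, a Rab of endosome and phagosome maturation with at most 25 reads in any library, was not called (-0.38 ± 0.35, FDR 0.392).

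Among the Rabs of late endosomes, lysosomes and autophagy, 5 of 7 tested genes were higher (RAB39A, RAB9A, RAB29, RAB32 and RAB7B) and 0 lower, next to 24.8% and 22.9% over all genes. Of these, RAB39A passed the filter only through CD. Their median log2 fold change was 0.59. RAB7A, which brings late endosomes and autophagosomes to fuse with lysosomes, was not among the called genes. Control replicates 1 to 3 held 140.4, 142 and 139 CPM of RAB7A and CD replicates 1 to 3 held 197, 198 and 143 CPM. Every CD library was above every control library, CD replicate 3 only by a factor of 1.01 over the highest of them. The log2 fold change was 0.35 ± 0.14 (FDR 0.0591), and without CD replicate 3 it was 0.45 (FDR 0.000263).

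RAB7B, the paralog that acts between late endosomes and the trans-Golgi, was likewise lowest in CD replicate 3. It stood at 47.1, 44.4 and 48.1 CPM in control and 77.1, 72.9 and 52.2 CPM in CD. It was called higher (0.54 ± 0.16, FDR 0.0169), but not when a control library or CD replicate 2 was left out (FDR 0.0551 to 0.0753). RAB39A, a Rab of phagosomes and lysosomes, was covered by 6, 2 and 1 reads in control and 11, 17 and 11 reads in CD, or 0.430, 0.145 and 0.0551 CPM against 0.676, 1.04 and 0.792 CPM. Its log2 fold change was 2.04 ± 0.54 (FDR 0.0112), and it fell to 1.51 without control replicate 3 (FDR 0.0555), reached 3.05 without control replicate 1 (FDR 0.00375) and lost the call without CD replicate 2 (1.81, FDR 0.0503). The paralog RAB39B had 2, 1 and 1 reads in control and 1, 1 and 0 in CD and was not tested.

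RAB9A, which returns mannose 6-phosphate receptors from late endosomes to the Golgi, stood at 11.97, 15.8 and 13.1 CPM in control and 22.4, 20.9 and 25.4 CPM in CD (0.75 ± 0.17, FDR 0.00417). RAB29, a Rab that recruits the kinase LRRK2, rose by 0.72 ± 0.21 (FDR 0.0155) and was not called without control replicate 3 (0.56, FDR 0.0798). RAB32, known from lysosome-related organelles, stood at 23.9, 24.8 and 26.2 CPM in control and 37.4, 36.5 and 39.0 CPM in CD (0.59 ± 0.12, FDR 0.00317). RAB24, an atypical Rab linked to autophagy, gave 57.0, 62.7 and 60.4 CPM in control and 51.1, 56.1 and 68.3 CPM in CD, with overlap (-0.04 ± 0.14, FDR 0.836).

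Of the 3 remaining tested members, RAB23, a Rab of cilia and Hedgehog signaling, was called higher. It stood at 1.86, 1.59 and 1.38 CPM in control and 4.30, 2.52 and 2.02 CPM in CD (0.89 ± 0.32, FDR 0.0413). CD replicate 1 lay apart at the top. Without it the log2 fold change was 0.52 (FDR 0.134), and the call was also lost without CD replicate 2 or any control library (FDR 0.0590 to 0.151). RAB40B and RAB40C, which carry a SOCS box and serve as adaptors of a ubiquitin ligase, were lower in all 3 CD libraries without being called (-0.47 ± 0.22, FDR 0.102 and -0.32 ± 0.13, FDR 0.0635).

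Paralogous Rabs share most of their sequence and often their membrane, so the ratio of their reads in each library asks whether members of a pair changed alike. Scaling and transcript length drop out of the change of such a ratio between libraries. There were 10 pairs in 8 paralog groups with both genes tested, and in 4 the CD and control ratios did not overlap. Groups of single genes did not overlap for 58.0% of all genes tested. That share is no background for ratios, and none over other gene pairs was computed. The largest shift was that of RAB8A to RAB8B. There were 10.5, 9.96 and 10.98 reads of RAB8A for each read of RAB8B in control replicates 1 to 3 and 2.83, 4.96 and 4.06 in CD replicates 1 to 3, a 2.72-fold fall of the ratio. The ratio of RAB5A to RAB5C went from 0.151, 0.166 and 0.122 to 0.369, 0.266 and 0.352 (2.24-fold). That of RAB11A to RAB11B went from 0.276, 0.381 and 0.275 to 0.700, 0.4996 and 0.801 (2.13-fold). RAB7A to RAB7B went from 2.98, 3.21 and 2.90 to 2.55, 2.71 and 2.74, a small shift of -0.18 on the log2 scale.

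An exact two-sided permutation test gave p = 0.1 for each of these 4 pairs, which is the smallest p that 3 libraries against 3 allow (0.25 after Benjamini-Hochberg adjustment over 10 pairs), so none could pass a threshold of 0.05. The ratios overlapped for RAB2A to RAB2B, RAB3A to RAB3D, RAB5A to RAB5B, RAB5B to RAB5C, RAB6A to RAB6B and RAB40B to RAB40C. The change of the RAB6A to RAB6B ratio was 0.03 on the log2 scale, from 0.38 without CD replicate 3 to -0.23 without CD replicate 1. That of RAB5A to RAB5B was 0.70, from 0.32 without CD replicate 3 to 0.99 without CD replicate 2. The sources used here do not say how reads were divided between near-identical paralogs in counting.

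**Figure D3:**
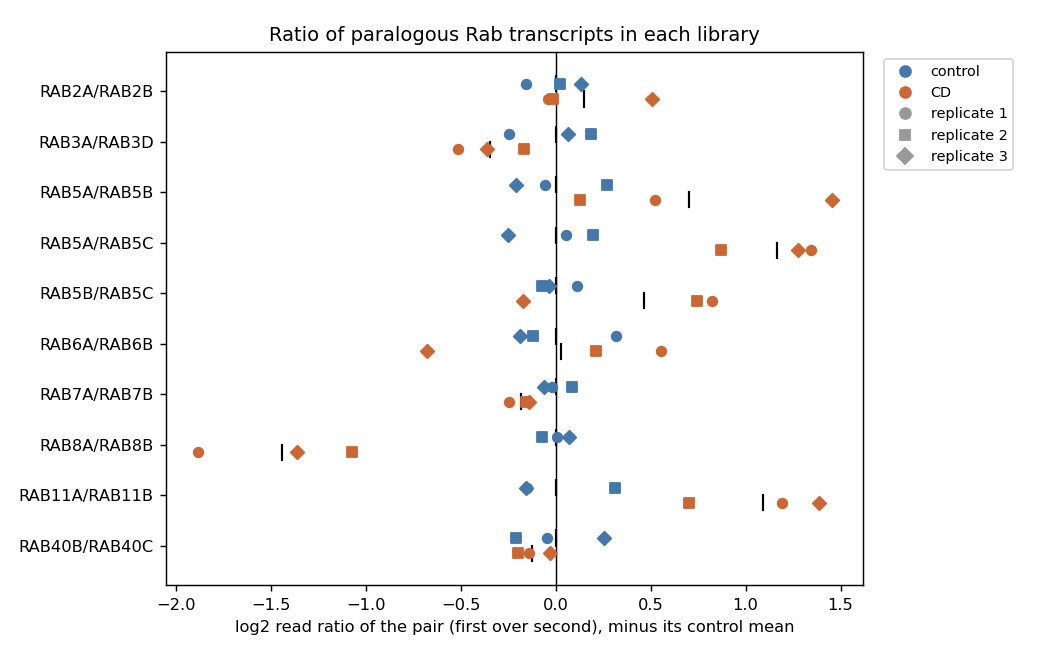
Log2 of the read ratio in each library, first gene over second, minus the mean of the control libraries (x axis), for 10 paralog pairs; colors are the groups, shapes the replicate numbers and black ticks the group means. The CD points of RAB8A/RAB8B lie to the left of all control points and those of RAB5A/RAB5C and RAB11A/RAB11B to the right, while RAB6A/RAB6B and RAB5A/RAB5B spread widely among the CD libraries.

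The CD libraries did not carry the Rab response evenly. The median over the tested members of the log2 ratio to the control mean was 0.64 in CD replicate 1, 0.52 in CD replicate 2 and 0.32 in CD replicate 3, where the median over all genes was 0.068, 0.011 and 0.002. For RAB6A this log2 ratio was 1.57, 1.03 and 0.52 in CD replicates 1 to 3, for RAB8B 1.56, 0.83 and 0.68, and for RAB23 1.42, 0.64 and 0.33. For RAB43 it was 0.82, 0.91 and 0.08, for RAB7A 0.48, 0.49 and 0.03, and for RAB5B 0.58, 0.60 and -0.41. The last 3 genes were near or below the control level in CD replicate 3 alone. RAB44, RAB37, RAB32 and RAB21 differed little between the CD libraries, and RAB5A, RAB11A, RAB18, RAB2A and RAB9A were lowest in CD replicate 2. CD replicate 3 was the lowest CD library for 39.1% of the 23 higher members and the highest for 39.1%, against 36.1% and 42.9% of all genes called higher. CD replicate 2 was the lowest for 47.8% and the highest for 17.4% of these members, against 31.4% and 19.8% of all genes called higher.

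With CD replicate 3 left out, 25 members were higher and 4 lower, including all 23 and 2 of the full comparison. RAB7A and RAB5B joined the higher members (RAB5B at 0.55, FDR 8.56e-05), and RAB40C (-0.31, FDR 0.0405) and RAB30 (-0.66, FDR 0.0343) the lower ones, RAB30 with the overlap with DDIAS (-1.81 over all libraries) whose part was not tested. The share called over all genes also rose in that setting, to 3616 higher and 3606 lower genes.

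**Figure D4:**
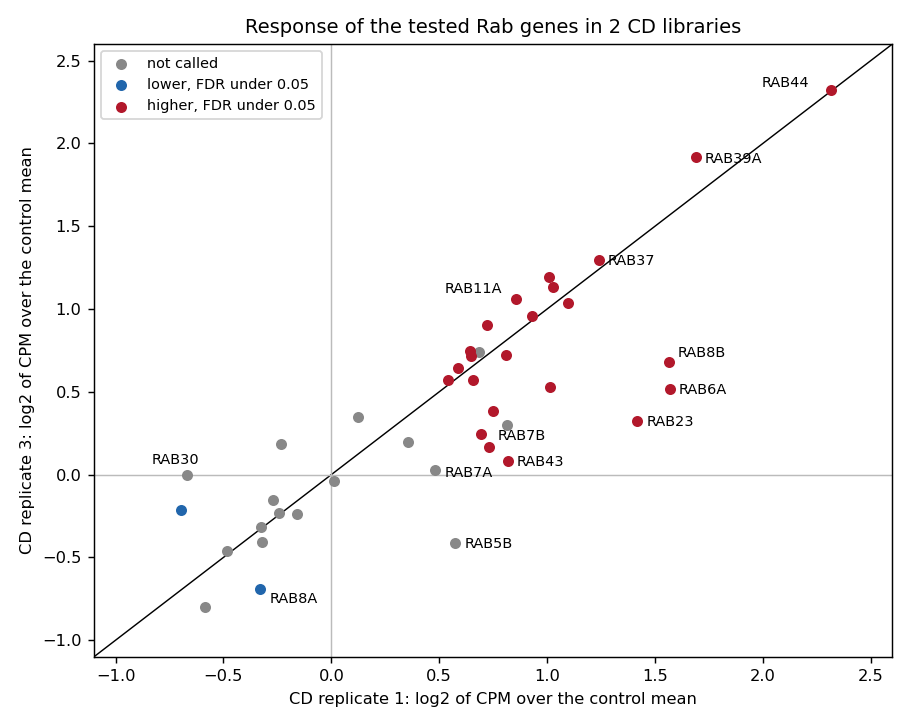
For each tested Rab gene, the log2 of its CPM in CD replicate 1 over the control mean (x axis) is plotted against the same for CD replicate 3 (y axis), with the diagonal of equal response; colors give the call over all 6 libraries. Most genes follow the diagonal, RAB6A, RAB8B and RAB23 lie below it with larger values in CD replicate 1, and RAB43, RAB7A and RAB5B are near or below 0 in CD replicate 3.

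Transcripts for the proteins that prenylate Rabs and hand them to membranes were called in both directions. Of 12 listed genes 10 were found and tested, of which 4 were higher and 2 lower (60% called, where 47.7% of all genes were), with a median log2 fold change of 0.45. GGPS1, which makes the geranylgeranyl donor, stood at 7.02, 9.25 and 6.34 CPM in control and 10.4, 10.4 and 14.6 CPM in CD (0.65 ± 0.22, FDR 0.0315). RABAC1, a membrane protein that binds Rabs, rose by 0.71 ± 0.16 (FDR 0.00539), and YIPF1, a Golgi protein of the Rab-binding Yip family, by 0.65 ± 0.18 (FDR 0.0127).

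RABGGTA, the alpha subunit of Rab geranylgeranyl transferase, fell by 0.35 on the log2 scale, from 95.5, 95.3 and 98.2 CPM to 65.9, 80.2 and 80.2 CPM (FDR 0.0326). The beta subunit RABGGTB stood at 19.1, 25.9 and 21.8 CPM in control and 20.2, 15.6 and 31.3 CPM in CD (0.003 ± 0.24, FDR 0.994). YIF1A, a Golgi partner of Yip proteins, fell by 0.45 (FDR 0.0159). The escort proteins CHM (0.72 ± 0.40, FDR 0.157) and CHML (0.27 ± 0.39, FDR 0.597), which present Rabs to the transferase, were not called, and CHM ranged from 5.35 to 1.58 CPM over the CD libraries. GDI2, which lifts inactive Rabs off membranes, was at 655, 642 and 657 CPM in control and 553, 621 and 591 CPM in CD (-0.15 ± 0.11, FDR 0.289). The lower genes of this list were 0 without control replicate 3 and 1 without control replicate 1 or 2 or CD replicate 1, and the higher genes were 2 without control replicate 1.

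Of the Rab activators, 31.0% were called, where 47.7% of all genes were. Of 41 listed GEF names 32 were found and 29 tested, of which 8 were higher and 1 lower (27.6% and 3.45%, against 24.8% and 22.9% of all genes), with 0.22 as the median log2 fold change. The higher share was thus near the background. DENND5A (1.46 ± 0.16, FDR 5.69e-05) and ANKRD27, an activator of RAB21 (1.14 ± 0.13, FDR 7.27e-05), had high fold changes. DENND2C had a higher one (1.83 ± 0.46, FDR 0.00833), but from 1, 5 and 6 reads in control and 15, 19 and 10 reads in CD, and it passed the filter only through CD. DENND5A stood at 47.1, 51.0 and 50.1 CPM in control and 162, 139 and 105 CPM in CD. RIN1, an activator of RAB5 proteins, was the lower one, from 53.4, 47.1 and 48.5 CPM to 18.7, 23.1 and 12.5 CPM (-1.45 ± 0.20, FDR 0.000282). The lower GEFs were 3 without CD replicate 1 and 2 without CD replicate 3.

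For the Rab inactivators, the share called was 48.1%, close to the 47.7% of all genes. Of 37 listed GAPs 28 were found and 27 tested, of which 8 were higher and 5 lower (29.6% and 18.5%, against 24.8% and 22.9% of all genes), with 0.14 as the median log2 fold change. The highest were TBC1D9 (2.04 ± 0.21, FDR 4.50e-05), SGSM3 (1.44 ± 0.12, FDR 8.03e-06) and TBC1D2B (0.93 ± 0.14, FDR 0.000486). The lowest were TBC1D4, which acts on RAB8A and RAB10 in glucose transporter traffic (-1.08 ± 0.26, FDR 0.00629), SGSM1, which reached the minimum in all control libraries but only 1 CD library (-1.01 ± 0.27, FDR 0.0121), and TBC1D2, a GAP of RAB7 (-0.80 ± 0.12, FDR 0.000348). TBC1D2 stood at 190, 175 and 211 CPM in control and 111, 118 and 103 CPM in CD, without overlap. The number of higher GAPs was 4 whichever control library was left out and 5 without CD replicate 1.

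Among Rab effectors, most called genes were higher. Of 57 listed genes 50 were found and 44 tested, of which 18 were higher and 2 lower (40.9% and 4.55%, against 24.8% and 22.9% of all genes; 45.5% called in all, against 47.7%), with 0.32 as the median log2 fold change. OPTN, an autophagy receptor that binds RAB8, stood at 34.0, 43.2 and 35.2 CPM in control and 113, 107 and 133 CPM in CD (1.65 ± 0.14, FDR 1.22e-05). LRRK2, the kinase that phosphorylates several Rabs, rose by 1.16 ± 0.30 (FDR 0.00979). SYTL3, which binds RAB27, was called higher (1.23 ± 0.36, FDR 0.0184), but it reached the minimum in only 1 control library and so passed the filter through CD. The lower effectors were KIF20A, a kinesin of cell division that binds RAB6 (-1.67 ± 0.14, FDR 9.38e-06), and RAB11FIP1, a RAB11 effector of recycling (-1.27 ± 0.12, FDR 2.50e-05). RAB11FIP1 stood at 99.7, 94.5 and 107 CPM in control and 45.5, 41.8 and 37.7 CPM in CD.

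**Figure D5:**
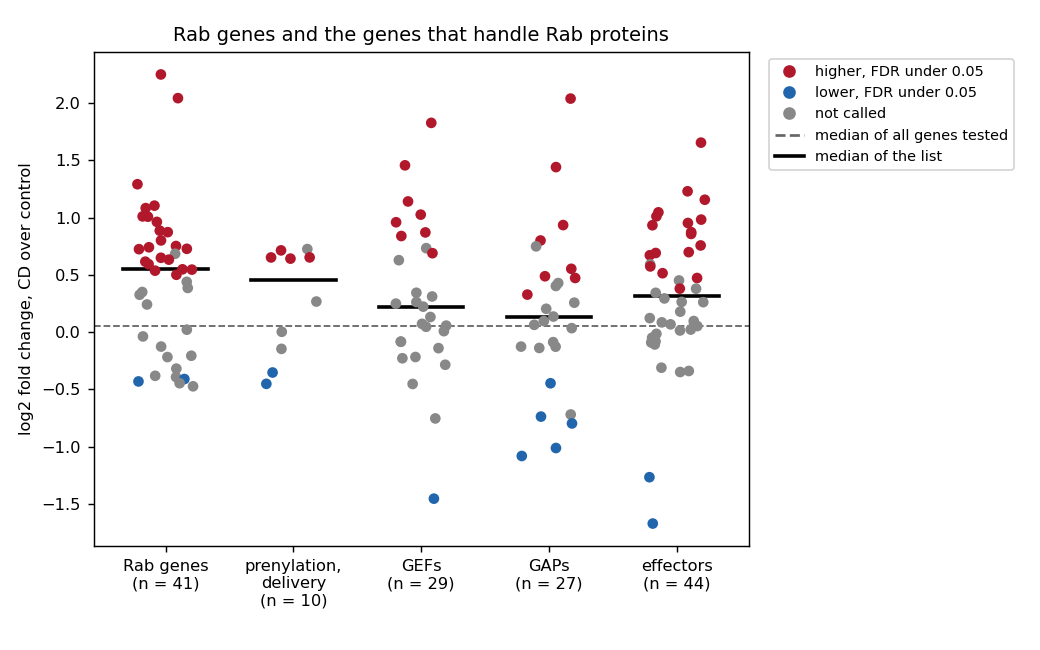
Log2 fold change of CD over control (y axis) for the tested genes of 5 lists (x axis, with the number tested), 1 point per gene with horizontal scatter added for legibility; thick lines are list medians and the dashed line is the median of all tested genes. The Rab list has the highest median (0.55) and RAB44 and RAB39A at its top, the GAPs reach from TBC1D9 (2.04) to TBC1D4 (-1.08), and the effectors extend down to KIF20A (-1.67).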

How the data were processed

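Gene counts of 6 mRNA libraries of Mv1Lu cells were analysed, 3 control and 3 CD, grouped by the sample labels. The authors deposited raw counts per gene, without normalization. According to the study's methods and the submitters' processing notes, poly(A) mRNA was amplified and made into Nextera XT libraries, reads were trimmed with fastp 0.20.1 and aligned to a mink assembly with STAR 2.7.2a, and expression was compared with DESeq2 1.30.1 in R 4.0.3. The counting program was not given in the sources used here. Entries for unmapped, multimapped, ambiguous and unannotated reads, which name no gene, were left out and made up 29.3% to 47.2% of reads. The deposited normalized files were not used, because their gene identifiers stand in another order than the values.

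The test was edgeR 4.0.16 in R 4.3.3 (filterByExpr with minimum count 10 and minimum total 15, TMM, glmQLFit with robust estimation, glmQLFTest, condition as the only term), fitted on all 12148 genes that passed, with Benjamini-Hochberg adjustment and an FDR threshold of 0.05. The SE of a log2 fold change is its absolute value over the square root of F, with a median of 0.16 over the Rab genes, which is the precision that depth and 3 libraries per group give. In simulated data for CD against control (12148 genes), 67, 67 and 66 genes were changed by 0.5, 1 and 2 on the log2 scale. Of these, 8.96%, 68.7% and 97.0% were recovered. In the data 47.7% of genes were called, and the adjustment is less strict when many genes change. The simulated shares therefore do not give the power of this comparison. Paralog ratios used a prior of 0.5 counts and an exact permutation test.

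The members and all gene lists were chosen with earlier results of these data known. Role and pathway lists were written from general knowledge, and DENND2B and DENND10 are listed under older names too. The genes given in full were the called members at either end, up to 10 higher and 10 lower by log2 fold change (2 lower ones existed), RAB7A, RAB5A, RAB11A and their paralogs, the delivery genes, and up to 3 called genes at each end of the other lists. Other members are given with their values so that all are accounted for. Some genes of the delivery, treatment check and marker lists are counted but not reported by name here. Alternatives were DESeq2 1.42.0, voom of limma 3.58.1, 3 other scalings, other filters, leaving out each library, a block for the replicate number, an FDR of 0.01 and a prior of 2 counts for ratios.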

Additional observations from a re-analysis of the deposited data

How the results depend on the processing

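Rab genes called higher numbered 20 with DESeq2, 22 with limma-voom, 22 to 24 with DESeq2 size factors or upper quartile scaling, 21 with total counts, 22 with no filter on low counts, 20 of 33 tested with at least 50 counts in 3 libraries, 16 to 25 with a library left out, and 14 at an FDR under 0.01. Over all genes, 2858 of 13803 tested were higher with DESeq2, 2939 of 12148 with limma-voom and 2633 of 10277 with at least 50 counts. They numbered 2913 to 3166 of 12148 with DESeq2 size factors or upper quartile scaling, 3000 with total counts and 3168 of 17882 with no filter. With a library left out, 2216 to 3616 of all genes were higher and 2194 to 3606 lower. The count over all genes at 0.01 is not given here. Rab genes called lower numbered 2 with DESeq2, limma-voom, DESeq2 size factors, upper quartile scaling and either other filter. They numbered 1 with total counts or the replicate block, 0 at an FDR under 0.01 and 0 to 4 with a library left out. The median log2 fold change of the tested Rab genes stayed between 0.51 and 0.58 in every setting, and no scaling moved the median of all genes by 0.1. Of the 23 higher members 14 were called in all settings that tested them (RAB44 was not among the genes with at least 50 counts in 3 libraries), of the 2 lower members 0 were, and 4 of the 16 others (RAB7A, RAB5B, RAB30 and RAB40C) were called in some. RAB23 was not called with DESeq2, limma-voom or total counts (FDR 0.0825, 0.0596 and 0.0583), RAB2B not with DESeq2, DESeq2 size factors, total counts or no filter (FDR 0.0515 to 0.0741), RAB4A not with DESeq2 (FDR 0.0554) and RAB8A not with total counts (FDR 0.0620), and RAB7A was called with upper quartile scaling (FDR 0.0418). With a library left out, the delivery genes numbered 2 to 5 higher and 0 to 2 lower, the lower GEFs 1 to 3 and the higher GAPs 4 to 11, and the cause was not tested. Non-overlapping paralog pairs numbered 4 to 6. No called Rab gene reversed its direction in these settings. With 3 libraries a group, changes near 0.5 on the log2 scale were called for some genes and not for others. RAB21 (0.55, FDR 0.0106) was called in the main fit and RAB27A (0.44, FDR 0.160) was not.

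The replicate numbers are shared by the groups, but the labels do not say that they mark a common batch. Deviations from the group means of same-numbered libraries had correlations of -0.02, -0.40 and -0.20, and no library correlated best with its own number. Deviations from a mean of 3 libraries are tied to each other, so these correlations do not settle whether the numbers mark a batch. With the number as a block, 21 Rab genes were higher and 1 was lower (RAB2B, RAB4A and RAB8A lost the call, FDR 0.113, 0.0615 and 0.0547), 1 delivery gene was lower and 5 GAPs were higher.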

Other observations

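Members of the family differed in which CD library stood lowest. Among the 23 Rab genes called higher, CD replicate 1 was the lowest CD library for 3, CD replicate 2 for 11 and CD replicate 3 for 9, while over all 3016 genes called higher the shares were 32.5%, 31.4% and 36.1%. Among the control libraries, replicate 2 was the highest for 14 of these 23 Rab genes, against 40.3% of all genes called higher. RAB18 had its highest control level (40.6 CPM) and its lowest CD level (45.1 CPM) in libraries numbered 2, and RAB11A likewise (40.6 and 56.4 CPM). These positions were looked at after the values were seen and have no test.

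The members below the filter were close to 0 in both groups. RAB26, a secretory granule Rab, had 0, 1 and 1 reads in control and 2, 4 and 6 reads in CD. RAB15, a Rab of endosomal recycling, had 0 reads in the 3 control libraries and 1, 1 and 5 reads in CD. RAB3C had 1 read in each control library and 1, 3 and 3 reads in CD. RAB17, RAB27B, RAB3B and RAB9B had at most 2 reads in any library.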
